A study of Mus musculus with 30 samples.

Results

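Transcripts of 6 genes of the mouse Ly6 family were followed through cultured dendritic cells: Ly6a, Ly6c1, Ly6c2, Ly6e, Ly6i and Ly6k. They were taken by gene symbol from a table of 25611 gene rows, and all 6 were among the 14808 rows tested. They were selected on measured values: Ly6k was lower in knockout than in wild-type cells in every condition, and the others were added with the levels in both genotypes in view. The contrast between genotypes is therefore given below as a description with no test. Bone marrow cells had been cultured for 6 to 7 days with the cytokine FLT3L at 200 ng/ml, which yields a mixture of plasmacytoid and conventional dendritic cells. They were Rubcn KO or Rubcn WT, Rubcn being the gene of Rubicon, a protein of LC3-associated phagocytosis. Each genotype was left with no treatment, or was exposed for 30 min or 4 h to OVA protein (ovalbumin) or to apoptotic Jurkat cells. Jurkat is a leukaemic T-cell line of human origin. That made 10 groups of 3 RNA sequencing libraries, 30 in all. The labels used here give no strain, age or form of the deleted allele, and do not say whether the 3 libraries of a group came from separate mice, so p-values measure only the spread between these libraries, which may be technical.

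Ly6 proteins are small, disulfide-rich proteins of the three-finger fold, most of them held at the cell surface by a glycosylphosphatidylinositol (GPI) anchor. Several are induced by interferons, and antibodies to them are used to sort blood and immune cells: Ly6a is the stem cell antigen Sca-1, and the Ly6C antigen encoded by Ly6c1 and Ly6c2 marks inflammatory monocytes and is also carried by plasmacytoid dendritic cells. Ly6e is widely expressed and is known for effects on virus entry, Ly6i is a close relative of Ly6a described in myeloid cells, and Ly6k is best known from the testis, where it is needed for male fertility.

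Libraries held between 9.73 M and 51.6 M counts (median 44.9 M), and the shallowest was KO 30 min OVA replicate 3. Levels are given in CPM, read counts divided by library sizes that were scaled with TMM factors. These factors were 0.765 to 0.842 in the libraries given Jurkat cells for 4 h and 1.03 to 1.07 in the rest. Rubcn, the targeted gene, was at 58.9 to 98.9 CPM in the WT groups and at 48.0 to 74.1 CPM in the KO groups, and KO was below WT without overlap of libraries in each condition, although most of its reads remained in KO. Every marker of plasmacytoid and of both types of conventional dendritic cell that had been listed was above 1 CPM in every group, as were the listed monocyte or macrophage markers.

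All 6 genes are protein coding and lie in 1 gene cluster on chromosome 15 of the mm10 build (GRCm38). From one end to the other they are Ly6k (74796874 to 74799968, minus strand), Ly6e (74955051 to 74959905, plus strand), Ly6i (74979812 to 74983430, minus), Ly6a (74994877 to 74998031, minus), Ly6c1 (75044018 to 75048837, minus) and Ly6c2 (75108161 to 75111949, minus). Their coding sequences are 396 to 465 bases long. Ly6a and Ly6i are identical at 86.4% of aligned coding positions, Ly6a and Ly6c2 at 81.7%, and Ly6c1 and Ly6c2 at 80.9%. Ly6k shares only 47.1 to 48.8% with any of the others, and Ly6e 47.9 to 53.8%.

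Such likeness bears on the counts. Of the distinct 50-base words in its exons, Ly6c1 shares 32.8% with other genes (21.5% with Ly6c2), Ly6a 19.0%, Ly6c2 14.4% and Ly6i 4.76%, whereas Ly6e and Ly6k share none. How reads that fit several copies were counted, and whether strand was used, is not given in the sources used here. The counts of Ly6a, Ly6c1, Ly6c2 and Ly6i are uncertain for that reason.

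Ly6c1 and Ly6c2 are a neighbouring pair with like sequences and, as shown further on, very unlike levels, so their upstream sequences are set side by side. RefSeq promoter windows (GRCm38.p6) were found for these 2 of the 6 genes. Each line holds the 250 bases before the first listed start, 5′ to 3′ on the minus strand, at chr15:75048838-75049087 for Ly6c1 and chr15:75111972-75112221 for Ly6c2. Capitals mark runs of at least 12 bases found exactly in both.
Ly6c1: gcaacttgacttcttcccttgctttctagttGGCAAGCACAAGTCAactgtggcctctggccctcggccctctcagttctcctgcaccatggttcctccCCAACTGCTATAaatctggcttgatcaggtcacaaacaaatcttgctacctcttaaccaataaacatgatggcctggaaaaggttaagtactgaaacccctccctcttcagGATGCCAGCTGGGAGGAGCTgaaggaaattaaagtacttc
Ly6c2: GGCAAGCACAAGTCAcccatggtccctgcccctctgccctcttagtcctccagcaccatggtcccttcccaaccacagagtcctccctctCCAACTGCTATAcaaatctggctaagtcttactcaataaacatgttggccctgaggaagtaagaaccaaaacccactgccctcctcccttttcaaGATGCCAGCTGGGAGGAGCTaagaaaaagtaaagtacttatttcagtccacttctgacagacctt
Shared runs covered 47 bases, or 18.8%, of each window, and the best local alignment had 164 identical positions in 227 columns (72.2%). Windows were searched on both strands for 2 copies of GAAA separated by any 2 bases, a form of the interferon-stimulated response element that 2.98% of 32851 promoter windows hold, and for TTCNNNGAA, a form of the gamma-activated site (7.02%). Neither occurs in these letters at any of the listed starts of Ly6c1 or Ly6c2. A PU.1 box, GAGGAAGT (2.44%), lies at position -108 from the first start of Ly6c2, and the first Ly6c1 window has none. The window of the other listed start holds it as well, with 1 match in Ly6c1 and 2 in Ly6c2.

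Per kilobase of exon, which allows genes to be compared, untreated WT cells held 388 ± 32.2 CPM per kb of Ly6e and 282 ± 3.19 of Ly6a (SD, n = 3). Ly6c2 was at 42.6 ± 0.910 CPM per kb, Ly6i at 2.57 ± 0.179, Ly6k at 0.631 ± 0.147 and Ly6c1 at 0.157 ± 0.0316. Ly6e and Ly6a were thus the abundant members and Ly6c1 the least abundant. Ly6c1 had 3 to 17 counts per library over all 30 libraries and Ly6k 0 to 57, so both are counted with little precision.

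The first comparison set KO against WT within each condition. Ly6a, Ly6c2, Ly6e, Ly6i and Ly6k were lower in KO in all 5 conditions, with every KO library below every WT library of the same condition. Ly6c1 was not, and its libraries overlapped each time. Among all genes tested, the share lower in KO without overlap was 11.8% in untreated cells, 14.9% at 30 min of OVA, 16.8% at 4 h of OVA, 12.3% at 30 min of Jurkat cells and 20.4% at 4 h of Jurkat cells. It was 1.38% for all 5 conditions at once. Since the genes were chosen for this contrast, nothing is read from their count.

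Ly6k, the gene named in the choice, had 25, 29 and 19 counts in the untreated WT libraries (0.557, 0.625 and 0.388 CPM). The untreated KO libraries had 8, 4 and 8 counts (0.168, 0.0829 and 0.160 CPM), so the KO mean was 26.2% of the WT mean. Over the 5 conditions this share ran from 12.2% at 30 min of OVA to 45.4% at 30 min of Jurkat cells. The lowest rests on 5, 3 and 0 counts in KO, the 0 being in the shallowest library, where 3 counts would be 0.290 CPM. Without KO 30 min OVA replicate 1 the log2 difference there went from -2.56 to -3.04. Ly6k passed the filter on low counts (0.223 CPM in at least 3 libraries) through its WT libraries, all of which reached that level, while 0 to 2 of the 3 KO libraries of each condition did.

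Ly6c2 was at 119, 115 and 115 CPM in untreated WT and at 42.0, 44.6 and 43.7 CPM in untreated KO. The highest KO library of any condition, at 81.2 CPM after 4 h of Jurkat cells, was below the lowest WT library of any condition, at 100.2 CPM after 30 min of OVA. KO held 37.2 to 42.1% of the WT level over the 5 conditions, a log2 difference of -1.43 to -1.25.

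Ly6a was at 343, 336 and 341 CPM in the untreated WT libraries and at 149.6, 157 and 149 CPM in the untreated KO libraries. Its KO level was 42.0% of WT at 4 h of OVA, where the share was lowest, and 54.1% at 4 h of Jurkat cells, where it was highest. After 4 h of Jurkat cells KO exceeded untreated WT cells, at 579 ± 14.4 CPM.

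Ly6i, the less abundant relative of Ly6a, was at 2.74, 3.06 and 3.12 CPM in untreated WT and at 1.28, 1.14 and 0.922 CPM in untreated KO. KO was at 37.5 to 56.4% of WT. Ly6e differed least of these genes, at 1359, 1449 and 1599.6 CPM in untreated WT and at 1123, 1204 and 1202 CPM in untreated KO. Its KO level was 76.3 to 85.9% of WT (log2 -0.39 to -0.22), and its KO and WT libraries did not overlap in any condition.

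Ly6c1, in contrast, was at 0.223, 0.323 and 0.245 CPM in untreated WT and at 0.210, 0.166 and 0.240 CPM in untreated KO. Its KO mean ranged from 77.9% to 155% of WT with no steady direction. At 3 to 17 counts per library a difference of the size seen for Ly6e was not detectable.

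**Figure D1:**
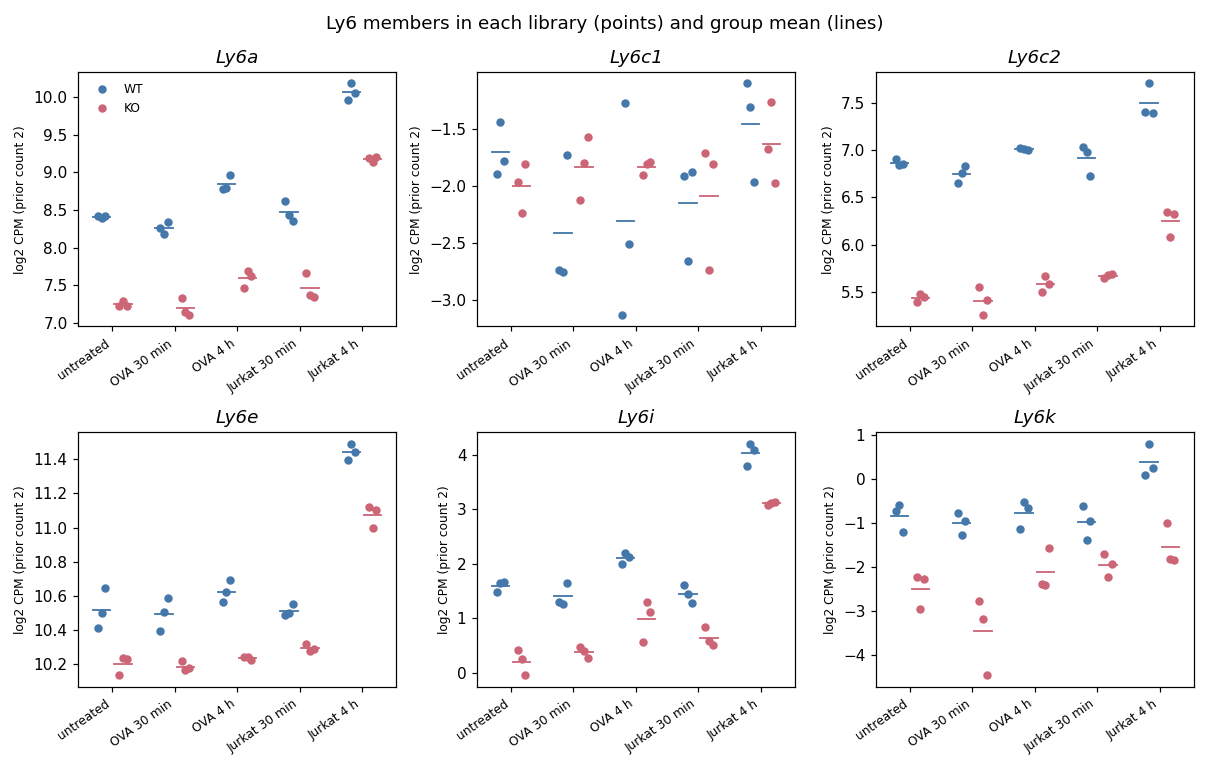
Level of each gene (log2 CPM with a prior count of 2, vertical axis) in each of the 30 libraries (points) and the group mean (lines), for WT (blue) and KO (red) in the 5 conditions; each panel has its own scale. KO points lie below WT points in every condition for Ly6a, Ly6c2, Ly6e, Ly6i and Ly6k and overlap for Ly6c1, and the highest WT mean of every gene is at 4 h of Jurkat cells.

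These are counts of whole cultures, in which fewer cells of a type and less RNA per cell cannot be told apart. Summed levels of marker lists differed between genotypes for some minor cell types and for some dendritic cell types. The 7 conventional type 2 dendritic cell genes summed to 1612 CPM in untreated WT (1584 to 1637) and 1729 CPM in untreated KO (1667 to 1798). Of that list Irf4 (137 CPM in untreated WT, 119 in untreated KO) and Cd209a (159 and 148) were lower in KO, and the others were higher. The sums of the type 1 genes overlapped in untreated cells. The 8 basophil or mast cell genes summed to 26.7 CPM in untreated WT (23.6 to 30.1) and to 79.8 CPM in untreated KO (60.2 to 93.5). The 7 stromal genes summed to 582 (546 to 626) and 798 (701 to 880) CPM, and the 6 B or plasma cell genes to 11.9 (11.4 to 12.2) and 23.4 (22.6 to 24.03) CPM. For cells known to carry Ly6C or Sca-1, the 8 plasmacytoid genes summed to 2089 CPM in untreated WT (2074 to 2105) and 1878 in untreated KO (1824 to 1972). This sum was lower in KO without overlap in every condition. In untreated KO, Ccr9 (271 CPM in WT, 290 in KO) and Cox6a2 (39.9 and 52.3) were higher, and the others of the list were lower. In untreated WT and KO, the 8 monocyte or macrophage genes summed to 3847 (3630.0 to 4030.4) and 4037 CPM (3834 to 4402), overlapping. Of that list Ccr2 (1077 CPM in untreated WT, 982 in untreated KO), Fcgr1 (22.4 and 18.6) and Adgre1 (226 and 216) were lower in KO. The others were higher, among them Lyz2 (2108 and 2390), the most abundant of the list. The 5 stem or progenitor genes tested summed to 155 (151 to 159) and 163 CPM (159 to 168). The 8 neutrophil genes, 2 of them under 1 CPM, summed to 148 CPM in untreated WT (135 to 154) and 127 in untreated KO (107 to 138), overlapping, and to 148 (144 to 150.3) and 115 CPM (113 to 118) at 4 h of Jurkat cells, without overlap. The part of these lists in the Ly6 differences was not tested.

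The second comparison asked how the genes responded to each treatment within a genotype. The choice of genes rested on the contrast between genotypes, but earlier results of these data, responses included, were known when it was made. The 4 treatments of a genotype share its untreated libraries. After 4 h of Jurkat cells Ly6a, Ly6c2, Ly6e and Ly6i rose in both genotypes (edgeR quasi-likelihood test, FDR under 0.05 over all 14808 genes). Ly6k rose in WT. It was also called higher in KO, but at few counts, and it passed the filter through its WT libraries. Only 0 of the 3 untreated KO libraries and 1 of the 3 treated ones reached the filter level for Ly6k. Ly6c1 was not called in either genotype. Among all genes 38.9% were called higher in WT (79.5% in either direction) and 37.5% in KO (78.5%). The median log2 fold change of the 6 genes was 1.11 in WT and 1.01 in KO, against -0.02 and -0.03 for all genes tested.

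Ly6i rose the most. It reached 13.7, 18.4 and 16.9 CPM in WT after 4 h of Jurkat cells and 8.35, 8.58 and 8.74 CPM in KO. Every treated library was above every untreated library of its genotype. The change was 5.48-fold in WT (log2 2.45, SE 0.127, edgeR FDR 8.64e-17) and 7.68-fold in KO (log2 2.94, SE 0.151, FDR 7.64e-17).

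Ly6a reached 991, 1158 and 1062 CPM in WT and 584, 563 and 591 CPM in KO, again without overlap with untreated libraries. This was a 3.15-fold rise in WT (log2 1.66, SE 0.0776, edgeR FDR 7.07e-18) and a 3.81-fold rise in KO (log2 1.93, SE 0.0787, FDR 2.74e-19). Ly6e, already the most abundant, rose 1.90-fold in WT to 2692, 2880.1 and 2784 CPM (edgeR FDR 2.52e-16). In KO it rose 1.83-fold to 2229, 2045 and 2195 CPM (edgeR FDR 1.03e-15). Each of these treated libraries was above all untreated ones.

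Ly6c2 rose to 169, 208 and 168 CPM in WT (log2 0.64, SE 0.0776, edgeR FDR 1.36e-08) and to 81.2, 67.7 and 79.9 CPM in KO (log2 0.81, SE 0.0821, FDR 3.83e-10). Scaled to total counts, which put the median of all genes at -0.42 in WT and -0.37 in KO, the rises of Ly6c2 were 0.24 and 0.47 and stayed above that median and under an FDR of 0.05. Ly6k went to 39, 57 and 38 counts in WT (1.02, 1.70 and 1.14 CPM), a log2 rise of 1.30 (SE 0.267, edgeR FDR 7.15e-05). In KO it had 17, 9 and 9 counts (0.455, 0.238 and 0.235 CPM), all above the untreated KO libraries, with a log2 rise of 1.15 (SE 0.427, FDR 0.0157). That KO call rests on few counts: it was lost without KO 4 h Jurkat replicate 1 (log2 0.77, FDR 0.153), without KO untreated replicate 2 (0.90, FDR 0.0776) and with total counts (0.82, FDR 0.0752). Ly6c1 had log2 fold changes of 0.33 in WT (95% interval -0.47 to 1.13, edgeR FDR 0.46) and 0.45 in KO (-0.39 to 1.29, FDR 0.342).

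Human reads of the Jurkat cells can enter these counts. The 11 T-lineage genes tested of 12 listed summed to 14.2 CPM in untreated WT (13.3 to 14.7), 47.3 after 30 min of Jurkat cells (46.5 to 48.3) and 112 after 4 h (91.8 to 124). In KO the sums were 18.5 (17.2 to 19.9), 37.3 (32.7 to 39.8) and 82.5 CPM (74.5 to 93.6). Ly6e was at 1461 ± 33.1 CPM in WT at 30 min of Jurkat cells, against 1469 ± 122 untreated. None of the 6 genes was called in WT at 30 min, and Ly6a was called in KO (given below). Of the other genes of the Ly6 cluster tested, 3 of 5 were called higher in WT at 30 min, against 14.2% of all genes: 2010109I03Rik (log2 1.54, edgeR FDR 0.00268), 9030619P08Rik (0.33, FDR 0.0156) and Ly6d (0.16, FDR 0.0461). In KO 0 of the 5 were called, against 8.72% of all genes called higher. The same 3 genes had changes of the same sign in KO: 2010109I03Rik (log2 1.12, edgeR FDR 0.0575), Ly6d (0.17, FDR 0.0593) and 9030619P08Rik (0.25, FDR 0.087). The interaction at 30 min of Jurkat cells was called for 0 of the 5. The part of human reads in the values at 30 min or 4 h was not tested. Other lists moved at 4 h of Jurkat cells too. The 5 endothelial genes tested of 6 listed, Sca-1 being also an endothelial antigen, summed to 77.4 CPM in untreated WT (75.1 to 80.6) and 1128 CPM at 4 h (1047 to 1285), of which Kdr alone was 28.0 and 1074 CPM and Emcn 0 and 0.0100 CPM. In KO the list summed to 75.8 (73.1 to 80.7) and 832 CPM (782 to 883). The 7 stromal genes went from 582 to 854 CPM in WT (781 to 910.2 at 4 h) and from 798 to 1151 CPM in KO (1001 to 1247). Their part in the Ly6 values was not tested.

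After 4 h of OVA Ly6a and Ly6i were the 2 of the 6 genes that rose, in both genotypes, and none fell. Called higher among all genes were 11.9% in WT (23.5% in either direction) and 5.94% in KO (11.6%). Ly6a was at 440.4, 444 and 499.6 CPM in WT (log2 0.44, SE 0.0759, edgeR FDR 6.81e-05) and at 177, 207 and 197 CPM in KO (log2 0.35, SE 0.0768, FDR 0.00253). Ly6i was at 3.95, 4.55 and 4.28 CPM in WT (log2 0.52, SE 0.137, edgeR FDR 0.00612) and at 1.43, 2.40 and 2.12 CPM in KO (log2 0.81, SE 0.178, FDR 0.00251). All of these treated libraries were above the untreated libraries of their genotype. Ly6c2 was not called in either genotype, with log2 fold changes of 0.15 in WT (edgeR FDR 0.184) and 0.14 in KO (FDR 0.304), although its 3 WT libraries, at 128 to 130.2 CPM, were all above the untreated ones. Ly6e was not called either, at log2 0.10 in WT (edgeR FDR 0.135) and 0.03 in KO (FDR 0.733). The T-lineage sums did not rise with OVA, at 12.98 to 14.3 CPM in WT and 16.5 to 17.8 CPM in KO at 4 h.

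At 30 min of OVA edgeR called 0 of the 6 genes in either genotype, DESeq2 also called 0, and 0 had an unadjusted p under 0.05, which 23.8% of all genes had in WT and 17% in KO. The background over all genes was 10.7% called in WT (5.51% higher) and 3.77% in KO (1.88% higher). At 30 min of Jurkat cells 0 were called in WT by either tool, with 0 at an unadjusted p under 0.05 (39.2% of all genes), where 28.7% of all genes were called (14.2% higher). In KO edgeR called Ly6a alone, where 17% of all genes were called (8.72% higher). By edgeR 3 of the 6 genes, Ly6a, Ly6c2 and Ly6i, had an unadjusted p under 0.05 in KO, against 29.5% of all genes. Ly6a was there at 203, 166 and 163 CPM (log2 0.23, SE 0.0768, edgeR FDR 0.0419), above all untreated KO libraries. Without KO 30 min Jurkat replicate 1, the highest of these, its log2 fold change was 0.12 (FDR 0.354), and the call was also lost without any 1 of the 3 untreated KO libraries (FDR 0.0616 to 0.124). Ly6c2 lay at the threshold (log2 0.23, edgeR FDR 0.0502; DESeq2 0.0328).

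**Figure D2:**
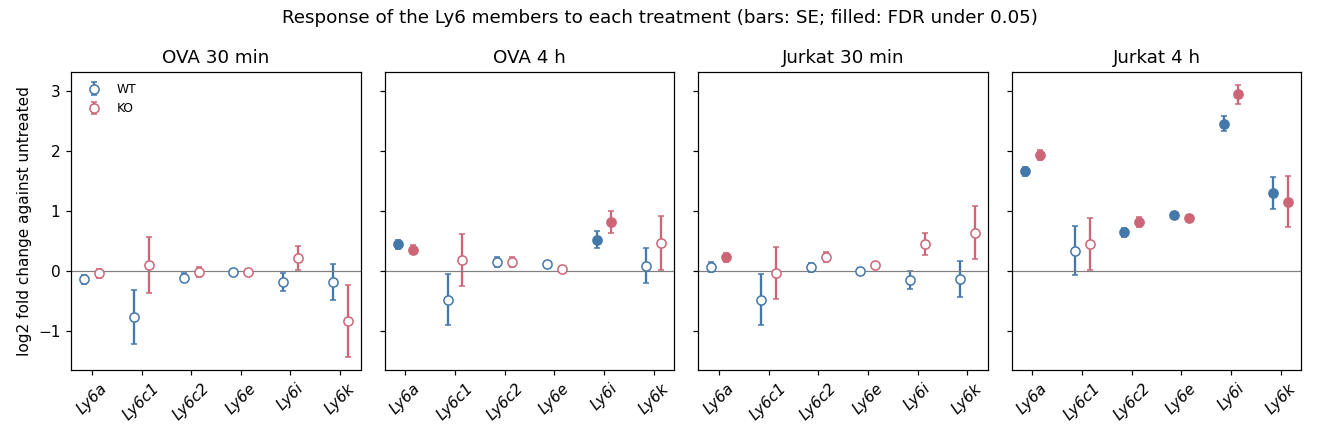
Log2 fold change of each gene against untreated cells of the same genotype (vertical axis) for the 4 treatments, in WT (blue) and KO (red); bars are 1 SE and filled points have an edgeR FDR under 0.05. At 4 h of Jurkat cells 5 genes are filled in each genotype, at 4 h of OVA Ly6a and Ly6i, and at 30 min only Ly6a in KO with Jurkat cells. The filled point of Ly6k in KO rests on few counts.

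The third comparison asked whether a response differed between genotypes, tested as an interaction for the 5 genes other than Ly6k. Their levels in both genotypes were in view when they were chosen, and the interaction is made from the same values. Its p-values and intervals are therefore not free of that choice. EdgeR called 0 of 5 for each of the 4 treatments, and so did DESeq2. At an unadjusted p under 0.05 there were 0 with OVA at either time, 1 with Jurkat cells at 30 min (Ly6i) and 2 at 4 h (Ly6a and Ly6i). By the same unadjusted threshold the share of all genes was 5.37% at 30 min and 7.41% at 4 h of OVA, and 7.41% at 30 min and 19.1% at 4 h of Jurkat cells. Among all genes the share called by FDR in either direction was 0% at 30 min of OVA, 0.0405% at 4 h of OVA, 0.00675% at 30 min of Jurkat cells and 4.26% at 4 h of Jurkat cells. After 4 h of Jurkat cells the rise of Ly6a was larger in KO by 0.28 on the log2 scale (95% interval 0.07 to 0.49, edgeR FDR 0.147) and that of Ly6i by 0.49 (0.09 to 0.89, FDR 0.184). Ly6a passed the threshold when the compared groups were fitted alone (0.32, FDR 0.0264) and with total counts (0.34, FDR 0.049). The interval for Ly6e was -0.19 to 0.09 and that for Ly6c2 -0.05 to 0.39. For Ly6k the difference was -0.14, given as a description.

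Over the 10 groups Ly6k spanned the widest range of mean CPM, 23.1-fold, but its lowest group rests on 0 to 5 counts per library. Ly6i spanned 14.7-fold, Ly6a 7.29-fold, Ly6c2 4.27-fold, Ly6e 2.39-fold and Ly6c1, at its few counts, 2.14-fold. The order of groups differed between genes. Ly6a ran from WT at 4 h of Jurkat cells (1071 CPM) through KO at 4 h of Jurkat cells (579) and the other 4 WT groups to the KO groups, ending with KO at 30 min of OVA (147), and 6 of its 9 neighbouring pairs of groups did not overlap. Ly6i and Ly6e likewise placed KO at 4 h of Jurkat cells second, with 4 of 9 pairs apart for each gene. Ly6c2 and Ly6k instead placed all 5 WT groups above all 5 KO groups, with 5 and 1 of 9 pairs apart. No neighbouring pair of groups was apart for Ly6c1.

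Across the 30 libraries, which share the same 10 groups, log2 CPM of Ly6a and Ly6i had a Pearson r of 0.976, that of Ly6e and Ly6i 0.970 and that of Ly6a and Ly6e 0.952. Without the 6 libraries of 4 h of Jurkat cells (24 left) the values were 0.958, 0.884 and 0.938. Ly6c2 was closest to Ly6k over 30 libraries (r = 0.891) and to Ly6a over 24 (0.970). With any other of the genes, Ly6c1 had r from 0.0121 to 0.322 over 30 libraries and from -0.229 to -0.119 over 24. These correlations describe the groups and are not independent of them.

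Of 10191 genes with a mean of at least 5 CPM, those most like each gene by r over 30 libraries were named. Ly6a was closest to Ifi44 (r = 0.991), Oas1g (0.983) and H2-T10 (0.971). Ly6i was closest to Oas1g (0.992), Oas1a (0.984) and Trim30b (0.983), and Ly6e to Bst2 (0.988), H2-T23 (0.985) and Ifitm3 (0.984). Ly6c2 was closest to Ifi27l2a (0.964), Siglec1 (0.929) and Clec9a (0.902), and Ly6k to Ifi27l2a (0.868), Plac8 (0.853) and Siglec1 (0.850). The highest r of Ly6c1, at its few counts, was 0.567. As background, Ifi44, Ifi27l2a, Bst2, Ifitm3 and the Oas1 genes are textbook interferon-stimulated genes, H2-T10 and H2-T23 encode non-classical MHC class I molecules, and Siglec1 is a sialic acid receptor of macrophages. The named genes depend on the measure. Over 24 libraries H2-T10 fell to place 39 for Ly6a (102 by Spearman's rho over 30 libraries), Siglec1 and Clec9a to 28 and 30 for Ly6c2 (21 and 22 by rho), and Ifi27l2a and Siglec1 to 47 and 114 for Ly6k (2 and 3 by rho). For Ly6e the first places over 24 libraries went to Hsh2d, Lag3 and Ddx24, with Bst2, H2-T23 and Ifitm3 at 10, 7 and 11. Ifi27l2a was first for Ly6c2 and Oas1g among the first 7 for Ly6a and Ly6i by each measure. Such a high r is not rare for some of the genes: 1065 genes exceeded 0.9 with Ly6e, 549 with Ly6i and 116 with Ly6a, but 3 with Ly6c2 and 0 with Ly6k.

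Neighbouring genes were then looked at, from 500 kb before the first of the 6 genes, Ly6k, to 500 kb past the last, Ly6c2, a window chosen after values had been seen. It holds 14 tested genes, the 6 above and 8 others. Of the 8 others, Arc, an immediate early gene of neurons, was lower in KO without overlap in all 5 conditions (log2 -0.60 to -0.31). Among all genes tested 1.38% were. Ly6g was lower without overlap in 3 conditions, Lynx1 and Them6 in 2 each, Ly6d and 2010109I03Rik in 1 each, and Jrk and 9030619P08Rik in none. Besides Arc, 2 of the 8 were below 0 in all 5 conditions, Ly6g and 2010109I03Rik, both at low counts. The share of all genes below 0 in all 5 conditions is not given here. Ly6d, a Ly6 gene that marks early lymphoid progenitors, lies 36.4 kb from Ly6k. It was at 203 ± 4.07 CPM in untreated WT and 207 ± 7.86 in untreated KO, with log2 differences of -0.23 to 0.04 over the conditions. Lynx1, a modulator of nicotinic receptors, was at 35.8 CPM (33.8 to 37.7) and 36.8 CPM (35.2 to 38.2), with differences of -0.35 to 0.06. Ly6g, the neutrophil antigen, averaged 0.179 CPM, with differences of -1.83 to -0.28, and 2010109I03Rik 0.401 CPM, with differences of -0.77 to -0.15.

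**Figure D3:**
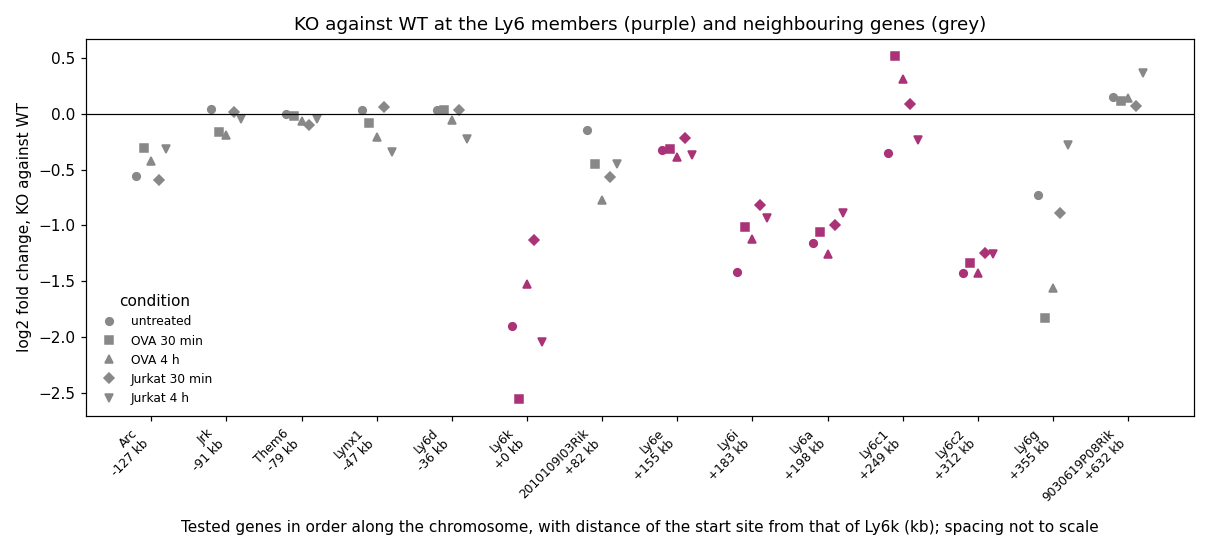
Log2 fold change of KO against WT (vertical axis) in the 5 conditions (symbols) for the 6 genes (purple) and the 8 other tested genes from 500 kb before Ly6k to 500 kb past Ly6c2 (grey), in order along the chromosome with the distance from Ly6k in kb under each name and spacing not to scale. Ly6a, Ly6c2, Ly6e, Ly6i and Ly6k lie below 0 in all conditions, as do Arc, 2010109I03Rik and Ly6g of the 8 others, while Ly6d and Lynx1 lie between -0.35 and 0.06.

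Of 21 listed other genes of the Ly6 cluster 16 were in the table and 5 were tested. After 4 h of Jurkat cells 3 were called higher and 1 lower in WT (median log2 1.64), and 4 and 1 in KO (median 1.38), where 79.5% and 78.5% of all genes were called in either direction and 38.9% and 37.5% higher. Lynx1 rose by 2.30 in WT and 1.91 in KO and Ly6d by 1.64 and 1.38 on the log2 scale. The gene that fell was 9030619P08Rik (-1.22 and -1.01). At 4 h of OVA Ly6d (log2 0.38 in WT, 0.29 in KO) and Lynx1 (0.48 and 0.23), 2 of the 5, rose in both genotypes, against 11.9% and 5.94% of all genes called higher. The response of Lynx1 to 4 h of Jurkat cells was smaller in KO (interaction -0.38, SE 0.101, edgeR FDR 0.0278).

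Family members encoded elsewhere were mostly silent: of 29 listed, 25 were in the table and 5 were tested. Plaur, the urokinase receptor, rose with 4 h of Jurkat cells by 2.62 in WT and 1.99 in KO, and this rise was smaller in KO (interaction -0.63, SE 0.0967, edgeR FDR 0.000326). In all, 2 of the 5 rose and 1, Cd177, fell in each genotype, while 79.5% of all genes were called in either direction in WT and 78.5% in KO, so the family's count is no higher than the background. Of 29 tested genes that make or attach the GPI anchor, 5 were called higher and 19 lower in WT at 4 h of Jurkat cells (median log2 -0.31), and 5 and 16 in KO (median -0.26). The share called in either direction over all genes was 79.5% in WT and 78.5% in KO, of which 38.9% and 37.5% were higher, and the medians of all genes were -0.02 and -0.03. Pgap2, an anchor-remodelling factor, rose by 1.69 in WT and 1.75 in KO, and Pgap1, the enzyme that removes the inositol-linked acyl chain, fell (-1.81 and -1.47). With 4 h of OVA 1 rose and 2 fell in WT, and 1 rose and 0 fell in KO, where the median log2 was -0.01 (all genes 23.5% called in WT and 11.6% in KO).

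All 15 listed genes of interferon receptors and signalling were tested. At 4 h of Jurkat cells 12 rose and 3 fell in each genotype, with medians of 1.16 in WT and 1.07 in KO. Among all genes 38.9% were called higher in WT and 37.5% in KO, and 79.5% and 78.5% in either direction. Irf1, an interferon-induced transcription factor, rose by 2.14 in WT and 2.17 in KO on the log2 scale, and Socs1, a feedback inhibitor of the receptors' kinases, by 4.72 and 4.83. Ifngr1, a chain of the interferon gamma receptor, fell (-2.39 and -2.36). At 4 h of OVA 8 rose and 3 fell in WT (median 0.15), and 7 rose and 2 fell in KO (median 0.06), where 23.5% and 11.6% of all genes were called in either direction and 11.9% and 5.94% higher. At 30 min of Jurkat cells 1 rose and 3 fell in WT (28.7% of all genes called, 14.2% higher), and 3 rose and 0 fell in KO (17%, 8.72% higher). The 3 in KO, Irf7, Socs1 and Usp18, rested on KO 30 min Jurkat replicate 1, the library that also set the Ly6a call there. Irf7, an interferon-induced regulator of interferon genes, was at 163 CPM in that library, 79.9 and 88.5 in the other two, and 72.6 to 76.3 untreated. Usp18, an inhibitor of interferon receptor signalling, was at 63.5 CPM there, 19.4 and 27.3 in the other two, and 21.1 to 24.4 untreated. Without that library, an alternative added after the values were seen, 0 of the 15 genes were called higher and 1 lower. Usp18 also lost its call without KO untreated replicate 2 (edgeR FDR 0.0772) or 3 (FDR 0.101). For the interaction at 4 h of Jurkat cells 2 of the 15 were called higher and 1 lower, against 4.26% of all genes called in either direction. Among those called, named here after their values were seen, Irf9 (0.28, edgeR FDR 0.0111), a DNA-binding partner in interferon signalling, responded more in KO. The receptor chain Ifnar2 fell in both genotypes, and the fall was larger in KO (interaction -0.21, edgeR FDR 0.0155). It went from 362 to 295 CPM in WT and from 345 to 243 CPM in KO.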

How the data were processed

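Genotype, treatment, time and replicate were read from the sample titles. The authors deposited 1 table of raw read counts per gene with mm10 intervals, per the file headers, and the submitters' processing notes name STAR 2.5, Subread, featureCounts 1.5.0-p1, DESeq2 and mm10, with no settings. Counts were scaled with TMM and rows kept by filterByExpr (minimum count 10), which left 14808 of 25611 rows. A single quasi-likelihood model with 10 group means was fitted to the 30 libraries with edgeR 4.0.16 (R 4.3.3). Tests were two-sided, p-values were adjusted by Benjamini-Hochberg over all rows tested (FDR), and an FDR under 0.05 made a call. Replicate numbers were not treated as pairs: 0 of 45 group pairs had every same-number correlation over 0.1. The mean same-number correlation was 0.00704, against -0.00345 for other numbers, and reached 0.113 as the mean of a group pair. This rule cannot exclude a weaker pairing, or one within a genotype. On simulated counts for WT at 4 h of Jurkat cells (14565 genes), the test called 100% of 100 genes changed by log2 1, 88% of 100 changed by 0.5, and 7 unchanged genes. Only 200 genes were changed there, all with a mean over 1 CPM, whereas the real contrast called 79.5% of genes. These figures therefore do not cover so broad a response, nor Ly6c1 and Ly6k, with means of 0.228 and 0.421 CPM. No 2 libraries were identical. Reads carry no molecular identifiers, so depth gives counting error only. Alternatives were DESeq2 1.42.0 and its size factors, total counts, no filter, a filter of 5 CPM, a replicate block, the compared groups alone, and leaving out each library. The genes named are the 6, genes of the Ly6 cluster list, up to 3 called genes of each other list by smallest p, and the 3 genes most like each of the 6 (identifiers without a symbol passed over). Rubcn, Arc, Jrk, Them6, Kdr, Emcn, Ccr9, Cox6a2, Irf4, Cd209a, Ccr2, Fcgr1, Adgre1 and Lyz2 were named outside this rule. So were genes called in an interaction. The 6 genes and all lists were chosen with earlier results of these data known.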

Additional observations from a re-analysis of the deposited data

How the results depend on the processing

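Among tested log2 fold changes of the 6 genes that passed the threshold, refits under another scaling, filter, tool or design kept the call 100 times, lost it 2 times and changed its sign 0 times, and refits without 1 library did so 84, 6 and 0 times. All of the lost calls were Ly6a in KO at 30 min of Jurkat cells or Ly6k in KO at 4 h of Jurkat cells. In KO at 30 min of Jurkat cells the number of the 6 genes called was 1, and 2 with DESeq2, with the filter of 5 CPM, with no filter and with total counts, while without 1 library it ran from 0 to 1. For the interaction at 4 h of Jurkat cells it was 0, and 1 with the compared groups alone and with total counts. Fitted with the compared groups alone, Ly6a in KO at 30 min of Jurkat cells lost its call (FDR 0.0949), Ly6c2 gained one there (FDR 0.00626) and another in WT at 4 h of OVA (FDR 0.0145). Replicate numbers were not treated as pairs in the main fit (14 of 30 libraries correlated best with their own number). A fit with the number as a block left each count as it was, such as 1 in KO at 30 min and 5 at 4 h of Jurkat cells. That block was shared by both genotypes, so pairing within a genotype was not tested. Of the 15 interferon signalling genes 3 were called in KO at 30 min of Jurkat cells, and 1 to 4 without 1 library. Low counts limit Ly6c1 and Ly6k, which the filter of 5 CPM removed.

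Values that changed sign were all uncalled. For the Ly6c2 interaction at 4 h of OVA (log2 -0.0019) they were 0.0041 with DESeq2's size factors, 0.018 with total counts, 0.00064 with the compared groups alone and 0.0050 with DESeq2. With total counts Ly6c1 in WT at 4 h of Jurkat cells went to -0.066 and the Ly6e interaction at 4 h of Jurkat cells to 0.015. The cause was not tested. Without 1 library, the ranges of the log2 values that crossed 0 were as follows. For Ly6c1 they were -0.27 to 0.27 in KO at 30 min of Jurkat cells, -0.034 to 0.28 in KO at 30 min of OVA and -0.13 to 0.34 for the interaction at 4 h of Jurkat cells, and, untested, for KO against WT, -0.15 to 0.40 at 30 min of Jurkat cells and -0.044 to 1.18 at 4 h of OVA. For Ly6c2 they were -0.13 to 0.063 in KO at 30 min of OVA, -0.0072 to 0.13 in WT at 30 min of Jurkat cells, and -0.0074 to 0.18 and -0.045 to 0.043 for the interactions at 30 min and 4 h of OVA. For Ly6e they were -0.049 to 0.00021 in KO and -0.077 to 0.042 in WT at 30 min of OVA, -0.061 to 0.058 in WT at 30 min of Jurkat cells, -0.059 to 0.060 for the interaction at 30 min of OVA and -0.11 to 0.0047 for that at 4 h of Jurkat cells. Ly6a in WT at 30 min of Jurkat cells ranged from -0.017 to 0.10. Ly6k in WT ranged from -0.35 to 0.044 at 30 min of Jurkat cells and from -0.096 to 0.25 at 4 h of OVA, and its untested interaction at 4 h of Jurkat cells from -0.52 to 0.11. Ly6c1 in WT at 4 h of OVA was called lower without WT 4 h OVA replicate 2 (log2 -1.35, FDR 0.048), and Ly6e in WT at 4 h of OVA higher without WT untreated replicate 3 (0.17, FDR 0.0173).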
